A study of Mus musculus with 743 samples.

Results

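The 4 mouse Ndrg genes (N-myc downstream regulated genes), Ndrg1, Ndrg2, Ndrg3 and Ndrg4, were examined as a family in single Schwann cells (SCs), the glia that ensheath and myelinate axons of peripheral nerves. All 4 members were found among the 25700 genes of the count table. Cells came from sciatic nerves of mice at postnatal day 1, an age at which SCs still divide and sort axons while some have already entered the promyelinating state. The mice, on the C57bl/6J background, were P0Cre-/+: ReYFP Tg/+: βAct-DsRed Tg/+. P0Cre expresses Cre recombinase in the SC lineage, ReYFP is a Rosa26 reporter that Cre switches on, and βAct-DsRed is expressed in all cells. All cells compared here share this genotype and age, and no treatment was given. Nerves were digested with trypsin, collagenase and hyaluronidase, single eYFP-positive cells were sorted into the wells of 2 plates, and libraries were made with Smart-seq2, a full-length protocol without molecular identifiers. Each plate held cells pooled from 1 male and 1 female mouse of its own, so that the plate is the replicate (n = 2) and cells are not.

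Cells were assigned to 3 classes, which were chosen by the reads of 3 other genes. CPM is the number of reads of a gene per 1000000 reads of a cell or of a sum of cells. Cycling SCs had at least 50 CPM of Mki67 and Top2a together. Promyelinating SCs (pmSCs) were not cycling and had at least 50 CPM of Ncmap, which encodes a membrane protein of noncompact myelin. The remaining cells are called other SCs. Of 621 cells with at least 1500 detected genes, 110 were cycling, 119 promyelinating and 392 other. By this choice Ncmap stood at 1546 CPM on plate 1 and 1460.5 CPM on plate 2 in pmSCs and at 0.544 and 0.226 CPM in other SCs, and Mki67 at 1083 and 526 CPM in cycling SCs. No read of an Ndrg gene entered a gate.

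The class sums held 45073128 to 172878954 reads, with a median of 701288 to 950150 reads per cell. Cycling cells and pmSCs had more genes detected (class medians of 3425 to 3690 per cell) than other SCs (2775 and 2819). At least 1 of the SC markers Sox10, S100b and Erbb3 was read in 98.2% of cycling, 100% of promyelinating and 96.2% of other cells. Of 17 genes of myelin and its control, 10 were higher in pmSCs than in other SCs and 0 lower. Of 7 proliferation markers, 6 were higher in cycling than in other SCs and 0 lower. Apart from Col1a1, markers of other nerve cells were low. Pdgfra, Ptprc, Tyrobp, Acta2, Rgs5 and Rbfox3 had no read in any class sum, and the 5 endothelial markers added up to at most 2.91 CPM. The immune markers Csf1r and Cd68 were at 2.77 to 19.3 CPM and 0 to 3.43 CPM, with no call. Stmn2, Tubb3 and Snap25, of the neuron list, were at 0 to 24.3, 0.0192 to 14.3 and 0 to 5.51 CPM, also with no call. Of the fibroblast markers, Col1a1 alone reached 501 to 1201 CPM, being higher in cycling than in promyelinating SCs (edgeR, adjusted p = 0.0357). Dcn, also on that list, was at 0 and 0.577 CPM in cycling SCs, 26.6 and 19 CPM in pmSCs and 36.7 and 10.5 CPM in other SCs, with no call. The mural marker Cspg4 was at 13.2 to 36.7 CPM with no call, and Pdgfrb had no read in cycling SCs and 13.8 to 43.7 CPM elsewhere. By edgeR, Pdgfrb was called lower in cycling SCs than in pmSCs and than in other SCs.

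Ndrg proteins share an alpha/beta hydrolase fold for which no enzymatic activity is known. Ndrg1 takes part in endosomal recycling and stress responses and is abundant in myelinating SCs. Its loss causes a recessive demyelinating neuropathy in humans (Charcot-Marie-Tooth disease type 4D) and a failure to maintain peripheral myelin in mice. Ndrg2 is best known from astrocytes and as a gene silenced in tumours, Ndrg3 has been linked to lactate signalling under low oxygen, and Ndrg4 is mainly found in neurons and heart. The kinase Sgk1 phosphorylates Ndrg1 and Ndrg2, and N-Myc represses Ndrg1, from which the family took its name.

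The sequences show what sets the members apart and why reads can be given to single members. In GRCm38 with GENCODE M21, Ndrg1 lies on chromosome 15 (66929318 to 66969640, minus strand), Ndrg2 on chromosome 14 (51905271 to 51914158, minus strand), Ndrg3 on chromosome 2 (156927345 to 156992056, minus strand) and Ndrg4 on chromosome 8 (95676980 to 95715119, plus strand). Coding sequences were 65.2% (Ndrg2 and Ndrg3) to 72.2% (Ndrg1 and Ndrg4) identical in pairs, and the longest run of identical bases that transcripts of any 2 members shared was 17 to 33 bases. The stretch of 60 coding bases in which the 4 members are most alike is shown first, each within 1 exon, with the bases that differ from Ndrg1 in capitals.
Ndrg1, exon 8, chr15:66943071-66943130, minus strand: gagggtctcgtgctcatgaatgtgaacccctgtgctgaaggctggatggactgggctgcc
Ndrg2, exon 7, chr14:51908574-51908633, minus strand: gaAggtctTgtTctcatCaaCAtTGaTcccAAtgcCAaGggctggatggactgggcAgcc
Ndrg3, exon 8, chr2:156943993-156944052, minus strand: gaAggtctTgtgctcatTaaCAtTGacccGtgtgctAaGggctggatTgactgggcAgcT
Ndrg4, exon 6, chr8:95708629-95708688, plus strand: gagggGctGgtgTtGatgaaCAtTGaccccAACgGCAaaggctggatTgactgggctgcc
Even here 13 (Ndrg3) or 15 (Ndrg2 and Ndrg4) of the 60 bases differed from Ndrg1.

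Ndrg1 alone among the 4 carries a tandem repeat near the end of its coding sequence, in exon 16 of 16, known as the part that Sgk1 phosphorylates. Its 3 units of 30 bases are shown with the bases that differ from the first unit in capitals.
Unit 1, chr15:66931011-66931040, minus strand: gagggcacccgtagccgctcccataccagc
Unit 2, chr15:66930981-66931010, minus strand: gagggcCcccgAagccgctcGcaCaccagT
Unit 3, chr15:66930951-66930980, minus strand: gagggGTcccgtagccgctcccataccagT
The best 3 consecutive windows of 30 bases had 10 mismatches over their junctions in Ndrg1 and 34 to 35 in the other members. In the promoter windows of RefSeq, 250 bases before to 50 bases after a start, GGGCGG (a GC box, read on both strands) was found in 3 of 3 windows of Ndrg2, 1 of 2 of Ndrg3 and 2 of 4 of Ndrg4, against 35.7% of 32851 windows of all genes. No window of Ndrg1 was searched. CACGTG, an E-box that Myc proteins can bind, was found in 1 window of Ndrg4 and in 7.15% of all windows. ACGTG (hypoxia response core) and ACAAAG (Sox motif) were each found in 1 window of Ndrg4 and 0 of Ndrg2 and Ndrg3. They were found in 19.6% and 18.7% of all windows. ACAATG, also a Sox motif, was in 0 windows of these members, against 12.6% of all windows. Windows of the same gene are not independent of each other.

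The first question was how each member is distributed over the 3 classes. Ndrg1 was read in nearly every pmSC and was highest there, Ndrg2 was lowest there and was read in about as many other SCs as not, Ndrg3 was low in each class and Ndrg4 was sporadic. Of the 4 members, 1 was called between promyelinating and other SCs (Ndrg2, lower), against 1.79% of 13292 genes tested, 0 were called between cycling and other SCs, against 1.01%, and 2 were called between cycling and promyelinating SCs (Ndrg1 and Ndrg2, in opposite directions), against 5.95%. An unadjusted p under 0.05 by edgeR was found for 2 members in pmSCs against other SCs, where 1485 of 13292 genes tested had it. In cycling against other SCs 1 member (Ndrg3) had it, against 1339 genes. In cycling SCs against pmSCs 2 members had it, against 2668 genes. DESeq2 called 2, 0 and 2 members in these contrasts (1026, 807 and 2322 of all genes). Limma also called 2, 0 and 2 (1201, 743 and 2510 of all genes). A call is an adjusted p under 0.05 from edgeR's quasi-likelihood test on reads summed per class and plate, adjusted over all genes tested. These comparisons share their sums, so that each class enters a pair of them. The median log2 fold change of the 4 members was -0.81 in pmSCs against other SCs (-0.07 over all genes), -0.69 in cycling against other SCs (-0.07 over all genes) and -0.15 in cycling SCs against pmSCs (0.02 over all genes).

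**Figure D1:**
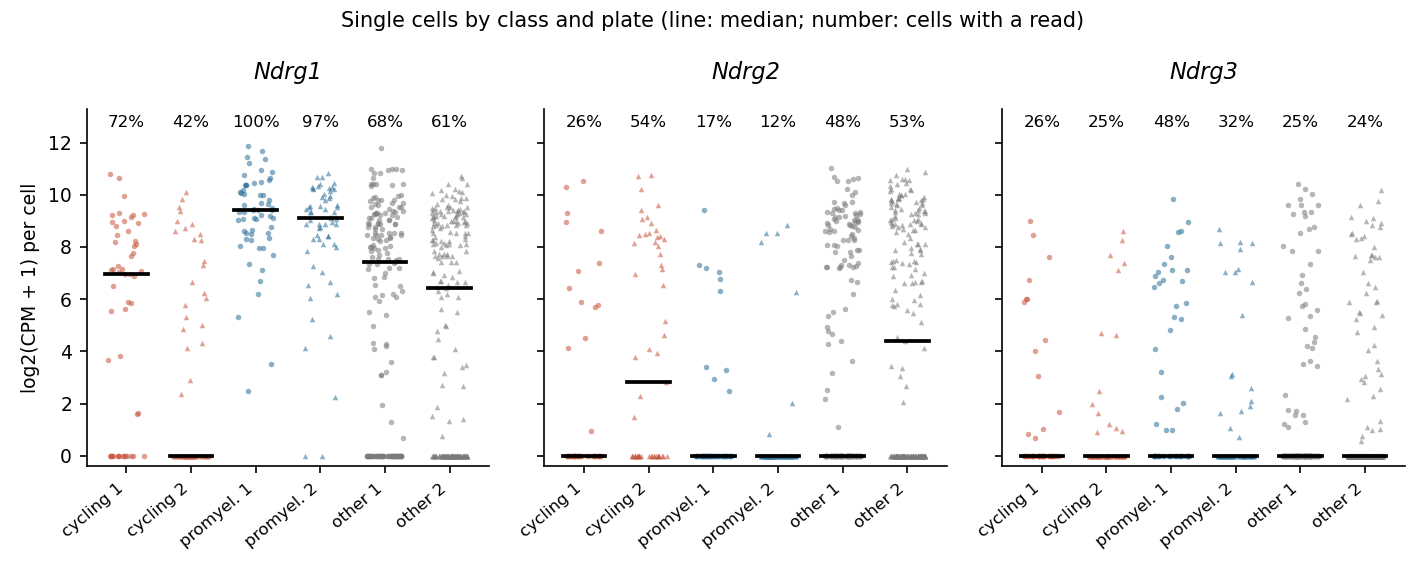
Level of Ndrg1, Ndrg2 and Ndrg3 in each of 621 cells, as log2(CPM + 1), by class and plate (1 or 2). Each point is a cell, the line is the median, and the number is the percentage of cells with at least 1 read. All pmSCs of plate 1 and 96.7% of those of plate 2 had a read of Ndrg1, while 16.9% and 11.7% had a read of Ndrg2.

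Ndrg1 stood at 840.4 CPM on plate 1 and 666 CPM on plate 2 in pmSCs, at 392 and 276 CPM in other SCs, and at 289.9 and 109 CPM in cycling SCs. Both plates gave the same order, pmSCs above other SCs above cycling SCs, and neither value of the pmSCs overlapped those of another class. The mean was 753 ± 123 CPM in pmSCs, 334 ± 82.6 in other SCs and 199.7 ± 128 in cycling SCs (SD, n = 2 plates). Cycling SCs were lower than pmSCs by edgeR (log2 fold change of -1.85 ± 0.44 (SE), adjusted p = 0.0472), with the log2 ratio at -1.54 on plate 1 and -2.61 on plate 2. That call was lost in 4 of 12 alternatives, among them a minimum of 2500 genes per cell (adjusted p = 0.0525) and gates at 100 CPM (adjusted p = 0.0545). Promyelinating over other SCs gave a log2 fold change of 1.25 ± 0.43 with an adjusted p of 0.301, which did not pass, and the 12 alternatives gave adjusted p from 0.00812 to 0.506. Other and cycling SCs, neighbours in the order, did not differ beyond their spread (log2 fold change of -0.60 ± 0.43, adjusted p = 0.700).

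The share of cells with a read of Ndrg1 was 100% on plate 1 (95% interval 93.9 to 100%, exact binomial, counting error only) and 96.7% on plate 2 (88.5 to 99.6%) in pmSCs, against 68.0% (60.5 to 74.8%) and 60.8% (54.0 to 67.4%) in other SCs. Cycling SCs differed between plates, with 71.7% on plate 1 and 42.1% on plate 2. After thinning every cell to 50000 reads the shares were 98.3% and 94.8% in pmSCs, 62.3% and 54.4% in other SCs and 69.2% and 42.1% in cycling SCs, so pmSCs were above the other classes also at an equal number of reads. The median number of detected genes still differed after thinning (3071 and 2976 in pmSCs, 2313 and 2396 in other SCs). Among cells with a read, the median was 679 and 557 CPM in pmSCs and 372 on both plates in other SCs. The test that gives each cell the same weight was limma on the mean of log2(CPM + 1) over cells. It called the difference between promyelinating and other SCs (3.65 ± 0.66, adjusted p = 0.00812), as did DESeq2 on the sums (1.29, adjusted p = 0.0350). By edgeR on the sums it was not called. The limma value is a difference of means in which cells without a read count as 0. It is not comparable with the fold changes of the sums. In this contrast limma called 1201, DESeq2 1026 and edgeR 238 of 13292 genes.

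**Figure D2:**
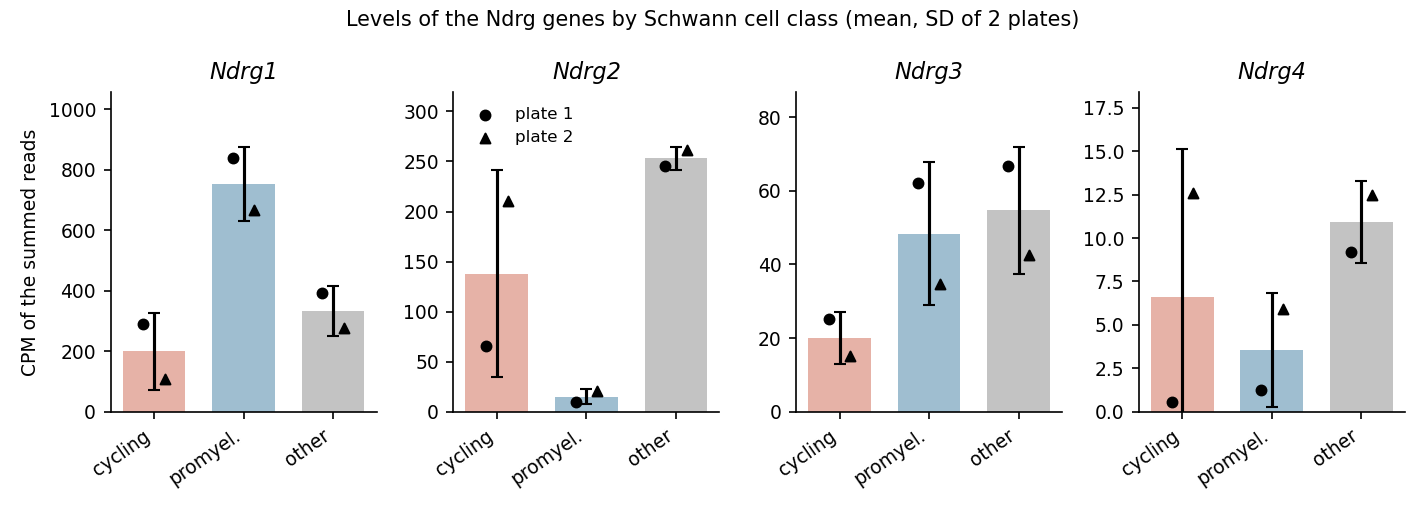
Level of each Ndrg gene in the summed reads of a class, in CPM. Bars are the mean and error bars the SD of 2 plates, drawn from 0 upwards, and points are the single plates. On both plates Ndrg1 was highest and Ndrg2 lowest in pmSCs, and Ndrg3 was lowest in cycling SCs.

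Ndrg2 stood at 9.70 CPM on plate 1 and 20.6 CPM on plate 2 in pmSCs, at 245 and 261 CPM in other SCs, and at 65.2 and 211 CPM in cycling SCs. The pmSCs were the lowest class on both plates, with no overlap, 25.3-fold and 12.7-fold below other SCs. The mean was 15.2 ± 7.71 CPM in pmSCs, 253 ± 11.5 in other SCs and 138 ± 103 in cycling SCs. By edgeR, Ndrg2 fell by 3.99 on the log2 scale from other to promyelinating SCs (SE 0.60, adjusted p = 0.0144), a direction in which 1.29% of all genes were called, against 0.497% that were higher in pmSCs. Cycling SCs were above pmSCs by 3.22 ± 0.58 (adjusted p = 0.0153), a direction taken by 3.83% of all genes, with 2.12% in the opposite one. Cycling against other SCs did not pass (log2 fold change of -0.76 ± 0.54, adjusted p = 0.695), and in that contrast 0.895% of genes were called higher and 0.113% lower.

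A read of Ndrg2 was found in 48.0% (95% interval 40.4 to 55.7%) and 53.0% (46.1 to 59.8%) of other SCs and in 16.9% (8.44 to 29.0%) and 11.7% (4.82 to 22.6%) of pmSCs. With 50000 reads per cell the shares were 45.1% and 50.7% in other SCs and 10.2% and 8.62% in pmSCs. In cycling SCs they were 26.4% on plate 1 and 54.4% on plate 2 without thinning. In pmSCs 10 cells on plate 1 and 7 on plate 2 had such a read, and 3 of them held 68.2% and 84.3% of the Ndrg2 reads of the class.

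Some dissociation response genes were lower in pmSCs, as Ndrg2 was. The 8 immediate early and heat shock genes of this list added up to 2205 and 2418 CPM in pmSCs, 5842 and 6379.9 CPM in other SCs and 4726 and 7160.5 CPM in cycling SCs. In pmSCs against other SCs, 4 of the 8 were lower (Fos, Egr1, Atf3 and Ier2), 0 higher and 4 not called (Fosb, Junb, Hspa1a and Hspa1b). Atf3, a stress-induced transcription factor, had no read in pmSCs of plate 1 and stood at 1.09 CPM on plate 2, against 328 and 344 CPM in other SCs. Other SCs with at least 50 CPM of Atf3 had 286 and 356 CPM of Ndrg2, and other SCs below that had 231 and 223 CPM. The part of the dissociation response in the difference between pmSCs and other SCs was not tested.

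Ndrg3 stood at 62.0 CPM on plate 1 and 34.7 CPM on plate 2 in pmSCs, at 66.8 and 42.5 CPM in other SCs, and at 25.1 and 15.2 CPM in cycling SCs. Cycling SCs were the lowest class on both plates, while promyelinating and other SCs overlapped. No contrast passed by edgeR (log2 fold change of -1.31 ± 0.56 for cycling against other SCs, adjusted p = 0.491, and -0.10 ± 0.55 for pmSCs against other SCs, adjusted p = 0.989). A read was found in 47.5% and 31.7% of pmSCs, 24.6% and 23.5% of other SCs and 26.4% and 24.6% of cycling SCs. With 50000 reads per cell these shares were 35.6% and 19% in pmSCs, 18.3% and 16.3% in other SCs, and 17.3% and 14% in cycling SCs.

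Ndrg4 was at 1.25 and 5.90 CPM in pmSCs, 9.19 and 12.5 CPM in other SCs and 0.569 and 12.6 CPM in cycling SCs. Both values of pmSCs were below those of other SCs, while the plates of cycling SCs spanned all the rest, and no contrast passed by edgeR, with adjusted p of 0.849 (pmSCs against other SCs), 0.964 (cycling against other SCs) and 0.807 (cycling SCs against pmSCs). A read was found in 1.69% to 8.33% of cells over the 6 sums. In cycling SCs of plate 1 all 27 reads came from 1 cell.

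The make-up of the family differs between classes when levels are given per length, which allows genes to be compared. Exon lengths of 6596, 3397, 8388 and 4893 bases were used for Ndrg1 to Ndrg4. Per kilobase of exon, pmSCs held 127 and 101 CPM of Ndrg1 and 2.86 and 6.07 CPM of Ndrg2, so that Ndrg1 made up 92.4% and 89.8% of the summed level of the 4 members. Other SCs held 59.5 and 41.8 CPM per kilobase of Ndrg1 and 72.2 and 77.0 of Ndrg2, and Ndrg2 made up 51.0% and 60.9%. The sum over the family was similar in both classes, at 138 and 112 CPM per kilobase in pmSCs and 142 and 126 in other SCs, with overlapping plates. In cycling SCs it was lowest, at 66.2 and 83.1 with no overlap, and the plates disagreed on the leading member, with Ndrg1 at 66.3% of the sum on plate 1 and Ndrg2 at 74.8% on plate 2. With the length of the principal transcript in place of all exons, a setting added after the data were seen, Ndrg1 led in other SCs of plate 1 (48.2%, against 41.4% for Ndrg2) and Ndrg2 in those of plate 2 (51.6%, against 39.6%), so the leading member of other SCs on plate 1 depended on the length used. Ndrg1 then made up 90.9% and 90.1% in pmSCs. By exon length, Ndrg3 made up 2.18% to 5.63% and Ndrg4 0.175% to 3.11% of the sum in every class.

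**Figure D3:**
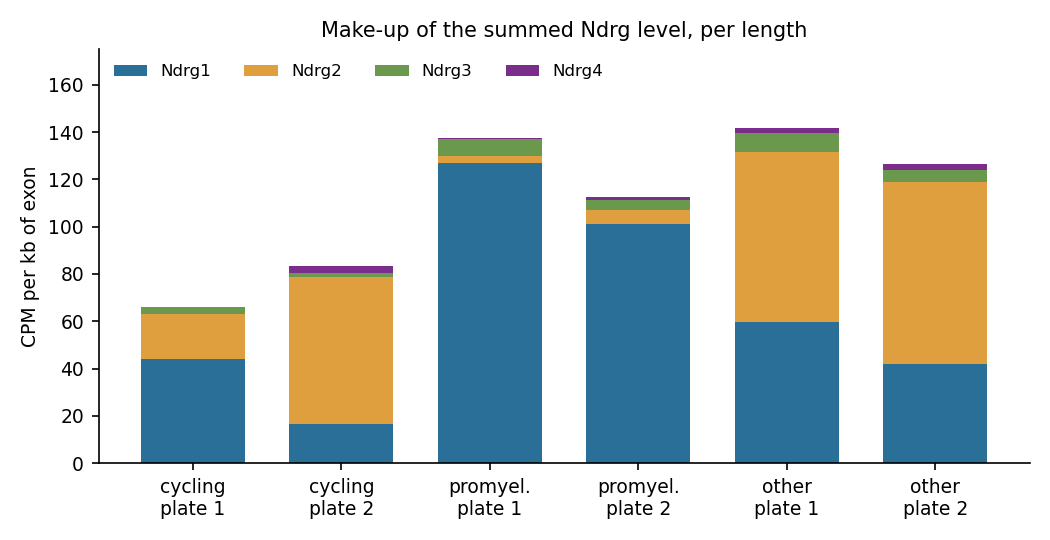
Summed level of the 4 Ndrg genes per class and plate, in CPM per kilobase of exon, split by member. Ndrg1 makes up 92.4% and 89.8% of the bar in pmSCs, Ndrg2 makes up 51.0% and 60.9% in other SCs (41.4% and 51.6% by transcript length), and the leading member in cycling SCs differs between plates.

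Cycling SCs are the class in which the family could be read least firmly. Both Ndrg1 (289.9 and 109 CPM) and Ndrg2 (65.2 and 211 CPM) differed more between the plates than their means did from those of other SCs, and in opposite directions. Of 53 cycling SCs on plate 1, 27 had reads of Ndrg1 without Ndrg2 and 3 of Ndrg2 without Ndrg1, and of 57 on plate 2 the numbers were 12 and 19. In addition, 3 cells held 45.3% and 44.2% of the Ndrg1 reads and 71.0% and 48.9% of the Ndrg2 reads.

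Ndrg1 and Ndrg2 were not exclusive within a cell. Of other SCs, 32.0% on plate 1 and 34.1% on plate 2 had reads of both, 36% and 26.7% of Ndrg1 without Ndrg2, 16% and 18.9% of Ndrg2 without Ndrg1, and 16% and 20.3% of neither. Of pmSCs, 83.1% and 85.0% had Ndrg1 without Ndrg2, and 0 of 119 had Ndrg2 without Ndrg1. That 0 allows a share of up to 2.52% (3 counts over both plates together, counting error only). The share is of cells with a read, not of cells expressing the gene. Only 2 pmSCs, on plate 2, had no read of Ndrg1, so the 0 was nearly fixed in advance and says little about the pair. Across the cells of a class and plate, Pearson's r of log2(CPM + 1) between Ndrg1 and Ndrg2 lay between -0.068 and 0.057 (Spearman's rho between -0.109 and 0.095). The points of such a correlation share their library and depth, and values this close to 0 in sparse reads describe no relation.

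The next question was how the members vary with the level of Ncmap, the gene that set the pmSC gate. Among noncycling SCs, cells without a read of Ncmap (168 on plate 1 and 211 on plate 2) had 257 and 266 CPM of Ndrg2, and cells with 1000 CPM of Ncmap or more (35 and 31) had 6.45 and 16.6 CPM. In between, the 12 cells with 50 to under 200 CPM of Ncmap had 71.9 and 46.8 CPM of Ndrg2, and the 41 cells with 200 to under 1000 CPM had 3.48 and 16.6 CPM. Both of these bins were below the cells without Ncmap on both plates, and the first held reads of Ndrg2 in 4 of its 12 cells. Ndrg1 went from 374 and 268 CPM without Ncmap to 322 and 549, 681 and 631, and 963 and 711 CPM in the 3 bins above the gate. A read of Ndrg1 was found in all 12 cells of the first of these bins. The 13 cells with Ncmap above 0 and under 50 CPM had 776 and 484 CPM of Ndrg1 and 0.409 and 149 CPM of Ndrg2. These bins are a description, and the lower ones hold few cells.

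**Figure D4:**
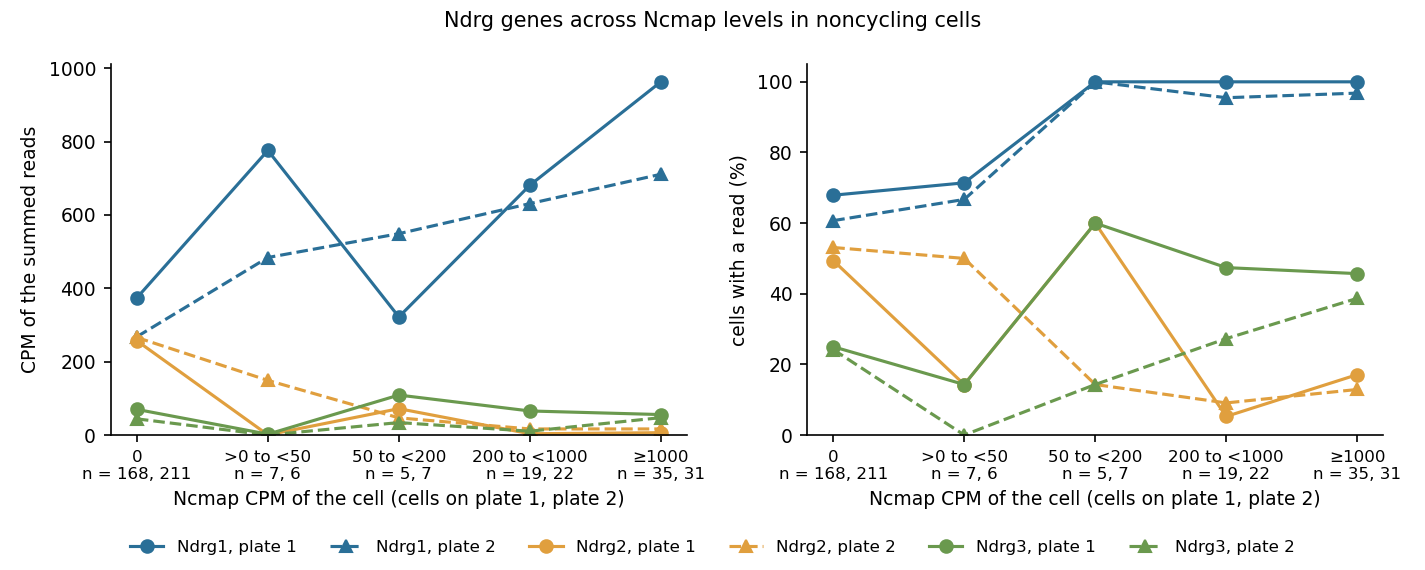
Ndrg1, Ndrg2 and Ndrg3 in noncycling SCs grouped by their Ncmap level, as CPM of the summed reads (left) and as the percentage of cells with a read (right), for plate 1 (circles, solid lines) and plate 2 (triangles, dashed lines), with the number of cells under each group. Ndrg2 falls from 257 and 266 CPM without Ncmap to 6.45 and 16.6 CPM in the highest group, while Ndrg1 reaches 963 and 711 CPM there.

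At the gate itself, the 5 cells just above it had 50.3 to 90.3 CPM of Ncmap, 39.2 to 734 CPM of Ndrg1 and reads of Ndrg2 in 2 cells (293 and 129.8 CPM). The 5 cells just below had 24.4 to 43.3 CPM of Ncmap, 0 to 2004 CPM of Ndrg1 and reads of Ndrg2 in 2 cells (18.3 and 52.0 CPM). At the cycling gate, the 5 cells just inside had 63.4 to 125 CPM and the 5 just outside 28.8 to 44.2 CPM of Mki67 and Top2a together, with reads of Ndrg1 in 2 and 1 of them.

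Cells with the early myelin genes Mag and Cldn19 but little Ncmap did not share the low level of Ndrg2. Of the other SCs, 68 on plate 1 and 85 on plate 2 had at least 50 CPM of Mag (a periaxonal adhesion molecule) and Cldn19 (a claudin of autotypic junctions) together but were below the Ncmap gate. They held 272 and 250.4 CPM of Ndrg2, and other SCs with under 50 CPM of both together held 232 and 267 CPM, whereas pmSCs with Mag and Cldn19 held 10.3 and 22.5 CPM. Ndrg1 was 445 and 366 CPM in the first group, 367 and 229 CPM in the second and 867 and 690.2 CPM in the third. This grouping was added after the results were seen. When pmSCs were defined by Mag and Cldn19 (218 cells) and cycling SCs by Cdk1 and Ccna2 (181 cells), both gates being replaced together, the difference in Ndrg2 between promyelinating and other SCs was -0.30 ± 0.28 and no longer called (adjusted p = 0.905).

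Among pmSCs, Ndrg1 was higher where Mbp, a structural protein of compact myelin, was at or above the plate median (1029 and 803 CPM) than where it was below (700.4 and 587 CPM), a difference of the same sign on both plates with no test, and Ndrg2 was under 40 CPM in each of these groups. Among other SCs, Ndrg2 was lower in cells with at least 500 CPM of Cdkn1c, an inhibitor of the cell cycle (136 and 108 CPM, against 281 and 322 CPM below). It was higher in cells with at least 50 CPM of Ngfr and L1cam, markers of immature SCs (350.3 and 321 CPM, against 200.3 and 228 CPM below). Ndrg1 differed less over these groups, with 286 and 265 against 427 and 279.8 CPM by Cdkn1c and with 401 and 225 against 389 and 304 CPM by Ngfr and L1cam, where the plates disagreed in sign.

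Genes with the pattern most like that of a member were taken by the mean over plates of Pearson's r of log2(CPM + 1) across cells, among 7893 genes detected in at least 10% of cells. The values are a description over 287 and 334 cells that share plate and class. For Ndrg1 they were Ncmap itself (r = 0.380), Cuedc2 (0.379), Fa2h (0.375), which encodes the hydroxylase of myelin galactolipids, Emid1 (0.357) and Csrp2 (0.357), a LIM protein. For Ndrg2 they were Ngfr (0.325), the p75 receptor of immature SCs, Zfp36l1 (0.301), an RNA decay factor, Npdc1 (0.298), Cd200 (0.297), an inhibitory ligand of myeloid cells, and Spry2 (0.295), an inhibitor of Ras signalling. For Ndrg3 no gene exceeded 0.213 (Prrc2a, followed by Capza2, Gypc, Mapk8ip1 and Slc27a1). Within the other SCs alone, where Ncmap barely varies, Cuedc2 (0.303) led for Ndrg1, followed by Pik3ip1, an inhibitor of PI3 kinase (0.244), Srp54b, Afap1l2 and 1110065P20Rik (0.208 to 0.201). Ngfr (0.297) again led for Ndrg2, followed by Btg2 (0.275), an antiproliferative gene, Entpd2 (0.257), Gm42928 (0.257) and Npdc1 (0.256), and Ppm1b (0.251) led for Ndrg3, followed by Prrc2a, Zfyve9, Bri3bp and Sgms1. The most opposed genes, singled out after their values were seen, were Dbi for Ndrg1 (-0.384 over all cells) and Cdkn1c for Ndrg2 (-0.327 within other SCs).

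Genes that act on or with Ndrg proteins were then examined in the same fits. Here and in the lists that follow, counts by unadjusted p, DESeq2 and limma are to be read beside those of all genes. The latter were given with the counts of the family, for each contrast. Among 9 genes for kinases of Ndrg proteins and subunits of their activating complex, 8 were tested and 0 were called between promyelinating and other SCs or between cycling and other SCs. In the first of these contrasts 1 gene had an unadjusted p under 0.05 and DESeq2 and limma called 1 each, and in the second all these counts were 0. Between cycling SCs and pmSCs 1 was called. Sgk1, the kinase of the Ndrg1 repeat shown above, stood at 135 and 115 CPM in pmSCs, 18.3 and 15.2 CPM in other SCs and 1.05 and 11.4 CPM in cycling SCs. It had the same order of classes as Ndrg1 on both plates, which no other tested gene of this list had. Mapkap1, for example, was highest in cycling SCs (51.7 and 79.2 CPM, against 16.3 and 37.8 CPM in pmSCs). How many of all genes have the order of Ndrg1 was not counted. By edgeR, Sgk1 was lower in cycling SCs than in pmSCs (log2 fold change of -4.30 ± 0.97, adjusted p = 0.0385). For Sgk1, pmSCs against other SCs gave 2.98 ± 0.91 with an adjusted p of 0.215. Gsk3b, which phosphorylates Ndrg1 after Sgk1, stood at 300.4 to 549 CPM in all sums with no difference called, and Sgk2 had no read in any class.

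Of the 8 Myc-family genes, 7 were tested. Mxd4, a partner of Max that opposes Myc, was at 22.5 and 43.5 CPM in cycling SCs, 179.7 and 161 CPM in other SCs and 122 and 172 CPM in pmSCs. It was lower in cycling SCs than in other SCs (-2.25 ± 0.39, adjusted p = 0.0394) and than in pmSCs (-2.11 ± 0.39, adjusted p = 0.0169), and was the 1 gene of the list that was called in each of these contrasts. Mycn, which encodes the N-Myc of the family's name, was at 24.1 and 50.4 CPM in pmSCs, 7.92 and 7.82 CPM in other SCs and 8.68 and 40.2 CPM in cycling SCs, and no contrast was called (2.32 ± 0.85 in pmSCs against other SCs, adjusted p = 0.333). In pmSCs against other SCs, edgeR and DESeq2 called 0 of the 7 genes and limma 1, with 1 at an unadjusted p under 0.05 by edgeR. Myc itself was at 66.9 and 67.0 CPM in other SCs, 19.8 and 47.3 CPM in pmSCs and 17.1 and 37.3 CPM in cycling SCs, again with no call.

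Low oxygen induces NDRG1 in many cell types. Of 8 genes of the oxygen-sensing pathway 6 were tested and 0 called in any of the 3 contrasts by edgeR, with 1 gene at an unadjusted p under 0.05 in each, while DESeq2 called 1, 1 and 0 and limma 2, 0 and 1 of them (pmSCs against other, cycling against other, cycling against pmSCs). Hif1a, the oxygen-regulated transcription factor subunit, was at 52.2 and 78.7 CPM in pmSCs, 20.2 and 35.4 CPM in other SCs and 13.8 and 32.8 CPM in cycling SCs (adjusted p = 0.465 for pmSCs against other SCs). Of 12 genes induced by low oxygen 10 were tested and 0 were called in pmSCs or in cycling SCs against other SCs by edgeR, with 1 at an unadjusted p under 0.05 in each, while DESeq2 called 0 and 1 and limma 3 and 0. Against pmSCs, 1 was lower in cycling SCs, the mitophagy receptor Bnip3, with 3.10 and 4.04 against 33.1 and 51.8 CPM (-3.52 ± 0.71, adjusted p = 0.0244). The median log2 fold change of the 10 genes in pmSCs against other SCs was 0.26, against -0.07 over all genes.

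Ndrg1 has been tied to endosomal recycling through partners that include Rab4a, Rabac1 and Cdh1, and these 3 genes were tested. By edgeR, 0 were called in pmSCs against other SCs and in cycling against other SCs, with 1 and 2 at an unadjusted p under 0.05, while DESeq2 called 0 and 1 and limma 2 and 0. In cycling SCs against pmSCs, 2 were lower. Rab4a, a GTPase of recycling endosomes, was at 0.779 and 12.3 CPM in cycling SCs, 284 and 205 CPM in pmSCs and 47.7 and 66.4 CPM in other SCs (-5.21 ± 1.06 in cycling SCs against pmSCs, adjusted p = 0.0257). Cdh1, E-cadherin of autotypic SC junctions, was at 0.990 CPM on plate 1 and without a read on plate 2 in cycling SCs, against 55.8 and 98.8 CPM in pmSCs and 21.6 and 12.3 CPM in other SCs (adjusted p = 0.0363). Rab4a and Cdh1 had the order of classes that Ndrg1 had, on both plates. Rabac1 had that order on plate 2 only. It stood at 104 and 197 CPM in cycling SCs, 181 and 246 CPM in pmSCs and 205 and 219 CPM in other SCs. How many of all genes have this order of classes was not counted.

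The 12 genes of recessive demyelinating neuropathy, to which Ndrg1 belongs, were the last group. Of 11 tested, 1 was called higher in pmSCs than in other SCs by edgeR and 0 lower. This was Prx (periaxin), at 1489.9 and 1635 CPM against 318 and 458 CPM (2.09 ± 0.23, adjusted p = 0.00333). In that contrast 4 of the 11 had an unadjusted p under 0.05 by edgeR, and DESeq2 called 3 and limma 5. Ndrg1 itself was among them each time. Over all 13292 genes these counts were 1485, 1026 and 1201. In cycling SCs against pmSCs, 3 of the 11 were lower and 0 higher, namely Prx (-3.29 ± 0.24, adjusted p = 0.000191), the myelin transcription factor Egr2 (-2.01 ± 0.29, adjusted p = 0.00562) and Ndrg1. In cycling against other SCs 0 of the 11 were called by edgeR, with 2 at an unadjusted p under 0.05, and DESeq2 and limma called 1 each. Mtmr2, Sbf2, Sh3tc2, Fgd4 and Surf1 had reads in every sum and no call, and Gdap1 had no read in any class. The median log2 fold change of the 11 genes was 0.57 in pmSCs against other SCs and -0.89 in cycling SCs against pmSCs, where all genes had -0.07 and 0.02.

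**Figure D5:**
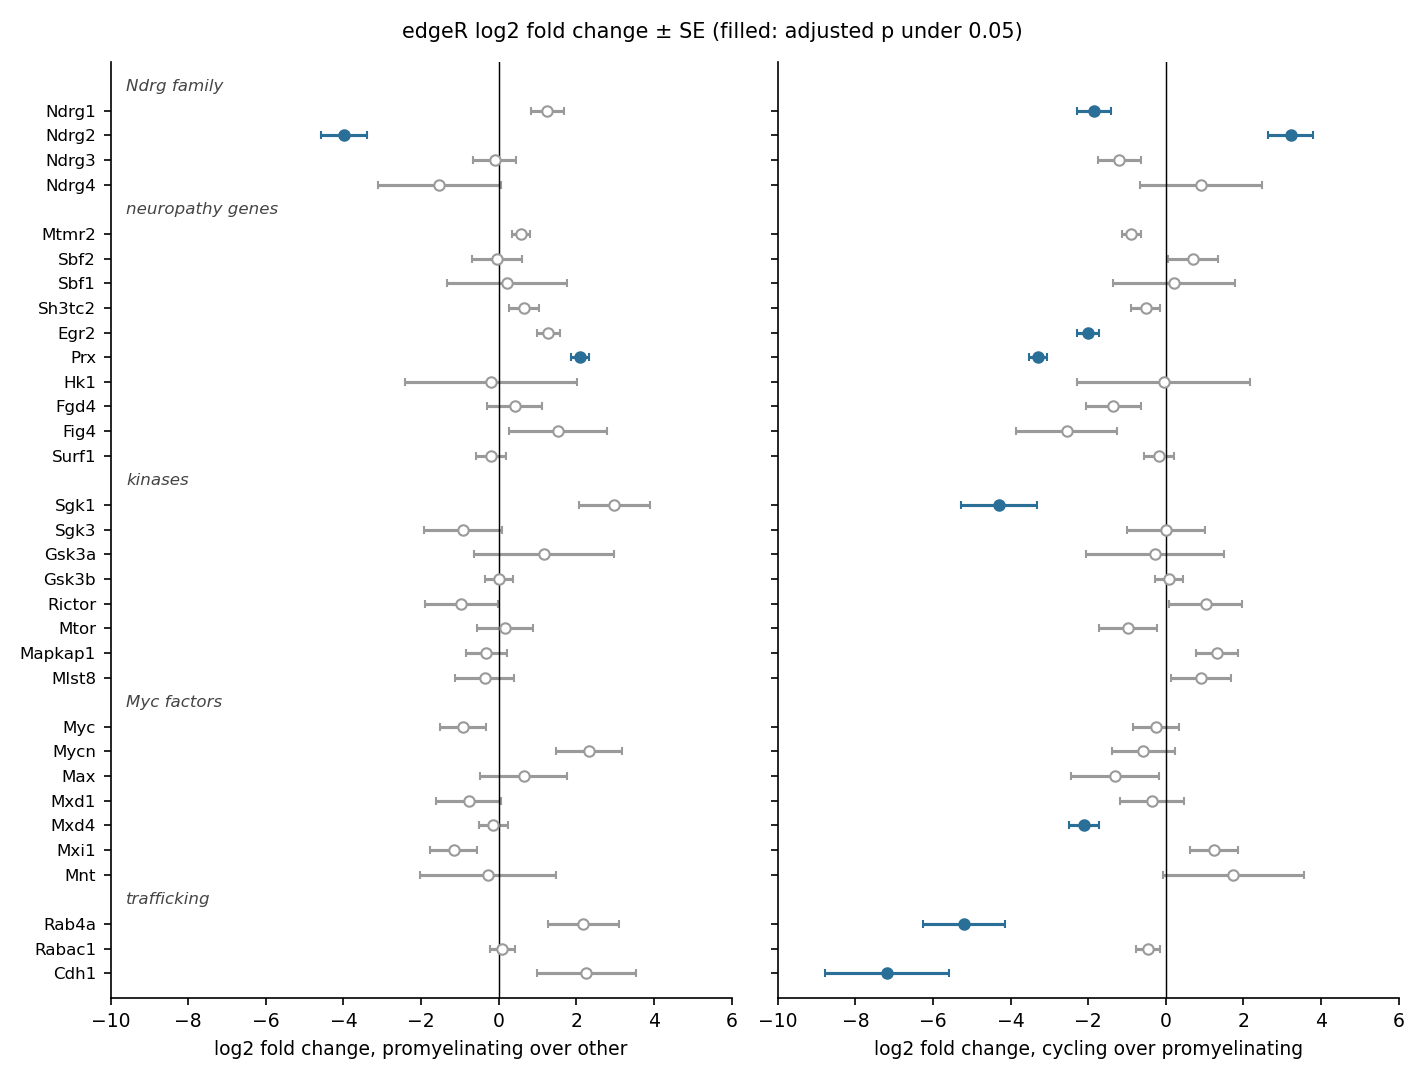
Log2 fold change ± SE by edgeR for the Ndrg genes and for tested genes of recessive neuropathy, kinases, Myc factors and trafficking partners, in pmSCs over other SCs (left) and in cycling SCs over pmSCs (right). Filled points have an adjusted p under 0.05. On the left Ndrg2 (-3.99) and Prx (2.09) are filled, and on the right Ndrg1 (-1.85) and Ndrg2 (3.22) lie on opposite sides of 0.

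The surroundings in which Ndrg2 fell were those of 2 marker groups. Of 8 markers of immature SCs, 4 were lower in pmSCs than in other SCs and 1 higher. The lower ones included L1cam (0.978 and 1.92 against 39.4 and 64.5 CPM), Chl1 (9.88 and 11.9 against 199 and 126 CPM) and Ngfr (0.575 CPM and no read, against 57.7 and 46.9 CPM), and the higher one was Nes, an intermediate filament gene (155 and 224 against 64.1 and 47.2 CPM). The myelin genes that were higher in pmSCs included Fa2h (217 and 262 against 12.8 and 42.9 CPM), Mag (473 and 439 against 30.8 and 75.8 CPM) and Gldn, which encodes a ligand of nodal adhesion (67.5 and 88.8 CPM, against no read and 0.00578 CPM). Whether the markers of other nerve cells have a part in the values of the Ndrg genes was not tested.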

How the data were processed

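RNA of single eYFP-positive SCs was read with Smart-seq2 on 2 plates. The authors counted reads per gene with featureCounts after alignment with STAR (version 2.6.1c and build GRCm38.p5 per the submitters' processing notes; the methods of the study name another version and a human assembly, while all gene IDs are mouse IDs). Whether counting used strand is not given in the sources used here, and annotated transcripts of Gm17035 and Gm2895 overlap Ndrg1 on the opposite strand and Gm27653 overlaps Ndrg3, none of which was analysed here. The deposited values are raw counts without molecular identifiers, so intervals cover counting error only. Symbols came from GENCODE M21 (25587 of 25700 IDs matched), and 0 columns were without a sample. Plate was taken from the sample titles. Of 743 wells, 122 with under 1500 detected genes were left out. No doublet caller was run, since cells were sorted 1 per well.

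Counts were summed per class and plate (6 sums) and fitted over 13292 genes with edgeR 4.0.16 (TMM, filterByExpr, robust quasi-likelihood test, no plate term, Benjamini-Hochberg adjustment, the SE taken as |log2 fold change| divided by √F). Sums of a plate come from the same mice. Deviations between plates correlated with r of 0.135 to 0.228 across 3705 genes for the 3 pairs of classes, and plate as a block was tried as an alternative. Further alternatives were DESeq2 1.42.0, RLE scaling, no low-count filter, limma 3.58.1 on the mean of log2(CPM + 1) over cells (pseudocount of 1), thinning to 50000 reads, a minimum of 1000 or 2500 genes, gates at 20 or 100 CPM, gates on other genes, other SCs with no read of a gate gene, and each plate left out. The length of the principal transcript was added after the data were seen. The fits were tested on simulated data. Levels per length used the union of GENCODE M21 exons, and sequences came from its principal transcripts. Motif windows are those of RefSeq on GRCm38.

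Named genes are the members, the gate genes, up to 3 list genes per contrast and direction with the largest change among those called, with 1 direction on both plates and no less than 20 CPM in their higher class. The 5 genes most like each member were added. The trafficking and myelin lists each leave out 1 gene that is not reported here. Gsk3b, Mapkap1, Rabac1, Mycn, Myc, Hif1a and neuropathy genes without a call were named outside this rule, after their values were seen. Members and gene lists were chosen with earlier results of these data known, so no p here is independent support. At 2 plates, p-values rest on the spread between 2 pools of mice. For each gene that spread was shared by the 3 classes, with no plate term, and was moderated over all genes tested.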

Additional observations from a re-analysis of the deposited data

Results flagged for a closer look

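Reads of Ndrg genes were also present in the 122 wells with under 1500 detected genes, which no comparison used. This was seen for 3 members on each plate above the limit that a count of 0 allows (0.178 CPM over the 83 wells of plate 1 and 0.728 CPM over the 39 wells of plate 2). Ndrg1 stood at 166 CPM on plate 1, in 8 of 83 wells (9.64%, exact 95% interval 4.25 to 18.1%), and at 636 CPM on plate 2, in 2 of 39 wells (5.13%, 0.627 to 17.3%). Ndrg2 stood at 109 CPM on plate 1, in 7 wells, and at 2.18 CPM on plate 2, in 3 wells. Ndrg3 stood at 1.13 CPM on plate 1, in 2 wells, and at 101 CPM on plate 2, in 1 well. The shares of wells with a read were below those of each class of kept cells for Ndrg1 (42.1% or more).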

How the results depend on the processing

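Counts of genes called moved most with the tool and the gates. For pmSCs against other SCs, cycling against other SCs and cycling SCs against pmSCs, 238, 134 and 791 genes were called. DESeq2 called 1026, 807 and 2322, limma 1201, 743 and 2510 (989 higher and 212 lower in the first contrast, with the median of all genes at 0.15 and not -0.07), the test without a low-count filter 521, 317 and 1290, thinned cells 390 and 238 in the first pair of contrasts, and the gates on Cdk1 with Ccna2 and on Mag with Cldn19 called 15, 46 and 77. Plate as a replicate block gave 295, 156 and 885 and changed no call of a member (Ndrg1 in pmSCs against other SCs, adjusted p = 0.0661).

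Of 144 alternatives for member fold changes with a test, 129 kept direction and side of the threshold. Most of the 144 belong to fold changes that were not called in the main fit. The call of Ndrg1 in cycling SCs against pmSCs was kept in 8 of 12 alternatives. Each of the calls of Ndrg2, in pmSCs against other SCs and in cycling SCs against pmSCs, was kept in 11 of 12. Ndrg1 in pmSCs against other SCs was called by DESeq2 (1.29) and limma (3.65, a difference of means over cells). Its call in cycling SCs against pmSCs was lost without the filter (-1.85), with 2500 genes per cell (-1.72), with gates at 100 CPM (-1.84) and with the other gate genes (-0.88). With the other gate genes, Ndrg2 gave -0.30 in pmSCs against other SCs (call lost) and -0.30 in cycling SCs against pmSCs (direction turned), Ndrg3 turned to 0.71 and 0.23 against other SCs and Ndrg4 to 1.04 in pmSCs against other SCs and -1.06 in cycling SCs against pmSCs. Those gates put 218 cells in the promyelinating class, against 119. Limma turned Ndrg3 to 0.67 in pmSCs against other SCs and Ndrg4 to -0.06 in cycling SCs against pmSCs, and thinning turned the latter to -0.12. The cause of any of these changes was not tested.

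With 1 plate the value is a log2 ratio with no test, and no count of calls. For pmSCs against other SCs the ratios were 1.10 to 1.27 (Ndrg1), -4.66 to -3.67 (Ndrg2), -0.29 to -0.11 (Ndrg3) and -2.88 to -1.09 (Ndrg4). For cycling against other SCs they were -1.33 to -0.44, -1.91 to -0.31, -1.49 to -1.41 and -4.01 to 0.01, the last turning without plate 1. For cycling SCs against pmSCs they were -2.61 to -1.54, 2.75 to 3.36, -1.31 to -1.19 and -1.13 to 1.10, the last turning without plate 2. Of 24 alternative shares of cells with a read, 17 stayed within 1 SD. With reads in at most 8.33% of the cells of a class on a plate, values of Ndrg4 rest on few cells. The part of depth in this was not tested.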
